A study of Mus musculus with 12 samples.

Results

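Genes of the kinetochore, the spindle and mitotic progression were taken from the expression tables of a study that removed Prmt5, the gene of an arginine methyltransferase, from 2 kinds of mouse cells. A gene was a member when its name in either table began with Cenp, Bub1, Bub3, Aurk, Ncap, Cdca, Spc2, Ska1, Ska2 or Ska3, or was 1 of the named kinesins, mitotic kinases, condensin subunits and markers of division. This gave 62 members of the 2491 gene names found in either table. Of the members 61 were listed in neural progenitor cells (NPC) and 8 in mouse embryonic fibroblasts (MEF), with 7 in both. RNA came from 12 libraries in 4 groups of 3. All groups carried the genotype labelled Prmt5 F/FER on a mixed C57BL/6 X 129S1/SvlmJ background and came from E14.5 embryos. NPC were cortical neurosphere cultures at day 4, grown with EGF and FGF, and MEF were primary fibroblasts at passage 1, grown to confluence. In each cell type 1 group received 50 nM 4-hydroxytamoxifen (4-OHT) for 24 h, which induces the loss of Prmt5, and the other received ethanol. No group held cells given 4-OHT without the conditional allele, so the agent and the loss of Prmt5 cannot be told apart.

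Chromosomes are pulled apart in mitosis by microtubules that attach at the kinetochore, a protein assembly built on centromeric chromatin marked by the histone variant CENP-A. The spindle assembly checkpoint holds back anaphase until every kinetochore is attached, and condensin, the chromosomal passenger complex and mitotic kinesins shape, correct and move the chromosomes. Cortical progenitors divide in culture, and transcripts of these genes are known to peak late in the cell cycle, in part through promoter elements bound by the MuvB complexes (DREAM with repression, B-Myb and FoxM1 with activation).

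The expression tables hold changed genes only, each with a Cuffdiff p under 0.05 that is not adjusted and a change of over 1.5-fold, so presence in a table is itself a result and a gene that is not listed may be unchanged, untested or short of a limit. Each arm has 1 RPKM value (reads scaled to transcript length and library size) for its 3 libraries, which leaves the replicate spread unknown. A standard error (SE) of each log2 fold change was derived from the deposited p. The labels do not say whether replicates were separate cultures or animals. The depth behind these values is unknown, as no source used here gives the total of a library. Prmt5 itself went from 33.4 to 4.92 RPKM in NPC and from 21.0 to 3.76 RPKM in MEF per the authors' deposited table. These are bulk samples, in which fewer dividing cells and less RNA of these genes per cell cannot be told apart.

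All 61 members listed in NPC were lower with 4-OHT and 0 were higher, where 43.4% of all 2416 rows of that table were lower and 56.6% were higher. The decreases lay in a narrow band, and the 1.5-fold listing limit sets its edge toward smaller changes. With 4-OHT the members kept between 46.2% and 66.3% of their ethanol level, with a median log2 fold change of -0.78 and quartiles of -0.91 and -0.72. The other 988 lower genes of the table had a similar median of -0.77 and quartiles of -0.92 and -0.67. Both sets passed the same p and fold limits, which leave smaller changes out. The comparison therefore cannot show whether the size of the change sets the members apart. The levels of the members were higher, with a median of 23.4 RPKM with ethanol against 9.47 RPKM for the other 988 genes. Member levels with ethanol ran from 3.41 RPKM for Cenpo to 159 RPKM for Top2a per the authors' deposited table. Across the 61 members, whose values come from the same libraries, level and change were nearly unrelated (Pearson r = 0.06, Spearman rho = 0.10). The listing limits cut the range of change, so these values hold for listed members only. Counting all 55450 genes of the annotation as tested, a Benjamini-Hochberg adjusted Cuffdiff p under 0.05 was certain for 60 members. The exception was Kif20a, with a bound of 0.190. The share of lower rows in the table moved with the limits used. It was 44.9% of rows with a Cuffdiff p under 0.01 (61 members), 46.9% by the bound (60 members), and 52.7% and 60.5% of rows that reached 1 or 5 RPKM in either arm (61 and 59 members). With a pseudocount of 1 on the RPKM scale it was 53.5% (58 members). Spc25 and Foxm1 stood nearest to the fold limit, with log2 fold changes of -0.59 and -0.61 per the authors' deposited table, and genes just outside it are not in the table.

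**Figure D1:**
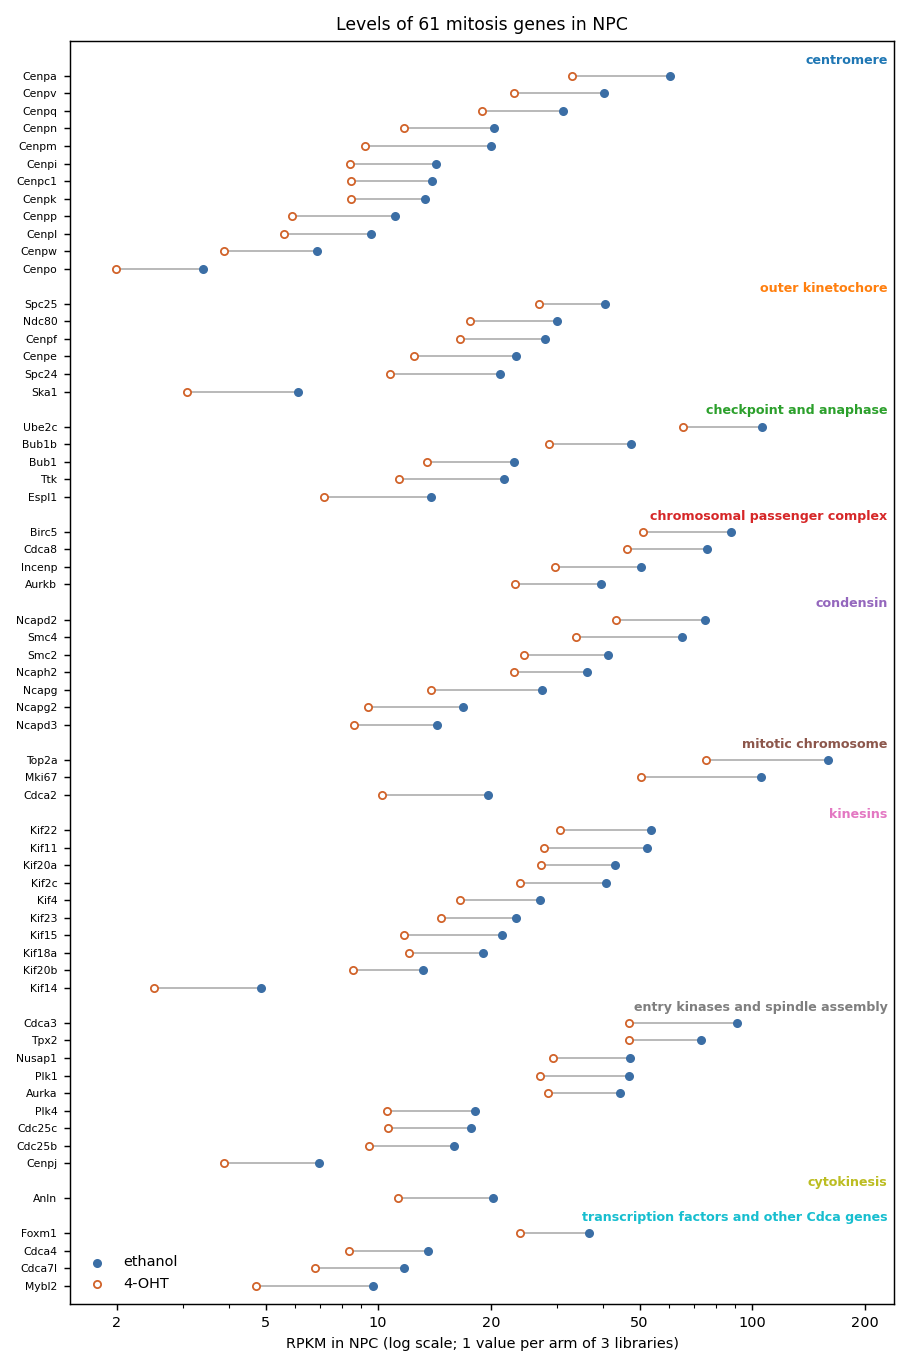
RPKM of the 61 members listed in NPC on a log axis, by role, with 1 filled point for ethanol and 1 open point for 4-OHT (each the authors' value for 3 libraries, with no error). Every open point lies to the left of its filled point, over levels from 3.41 RPKM (Cenpo) to 159 RPKM (Top2a) with ethanol.

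RefSeq holds 80 protein-coding mouse genes under the naming rule. Of these, 62 are members, 4 are in the NPC table under an older name and 14 are in neither table. The 4 are kinetochore genes too: Cenpu (as Mlf1ip), Cenps (as Apitd1), Cenpx (as Stra13) and Ska2 (as Fam33a). The log2 fold changes were, per the authors' deposited table, -1.12, -0.88, -0.69 and -0.79, all lower, and they are not counted among the members. The genes in neither table are Aurkaip1, Aurkc, Bub3, Cdc20, Cdca7, Cenpb, Cenph, Cenpt, Kif18b, Kifc1, Ncaph, Nuf2, Prc1 and Ska3. Among these are partners of listed genes, such as Nuf2, which pairs with Ndc80, Ncaph, the kleisin subunit of condensin I, and Cdc20, the activator that the checkpoint restrains. For scale, 2416 rows were listed in NPC and 111 in MEF, where the annotation holds 55450 genes. The members were chosen with earlier results of these data known. Counts of listed genes, here and by role below, are therefore descriptions and not tests.

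The promoters of the members were read from RefSeq (GRCm38.p6), 250 bases before to 50 after each start. Promoters were found for 52 members (56 promoters); Aurkb, Cdc25c, Cdca2, Foxm1, Incenp, Kif20a, Ska1, Smc4, Spc24 and Tpx2 had no entry. The cell cycle genes homology region (CHR), where MuvB complexes bind, has the core TTTGAA. On either strand this hexamer was in 33 of 56 member promoters (58.9%) and in 17.9% of all 32851 promoters of the same length. The CCAAT box of the factor NF-Y was in 64.3% and 37.4%. An E2F-type string (any of TTCCCGC or else TTGGCGC or else TTCGCGC or else TTGCCGC) was in 28.6% and 9.57%. Both TTTGAA and CCAAT were present in 44.6% and 6.95%. These matches describe letters, not bound sites, and the members were not drawn at random, so no test was run. The stretches from 150 bases before the start to the base before it are shown for 6 members whose values are given by role below and that hold both motifs there, with TTTGAA and CCAAT matches of either strand in capitals (TTCAAA and ATTGG are their reverse complements). Of these, Top2a and Ube2c were listed in both cell types.
Top2a, chr11:99024190-99024339, minus strand: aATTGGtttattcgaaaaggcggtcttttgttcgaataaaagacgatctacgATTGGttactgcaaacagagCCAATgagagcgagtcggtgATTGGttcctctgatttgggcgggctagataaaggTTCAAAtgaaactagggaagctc
Ube2c, chr2:164769779-164769928, plus strand: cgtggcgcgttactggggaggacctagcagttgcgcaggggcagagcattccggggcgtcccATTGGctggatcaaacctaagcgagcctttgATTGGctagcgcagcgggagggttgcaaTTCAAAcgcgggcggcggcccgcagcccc
Espl1, chr15:102296143-102296292, plus strand: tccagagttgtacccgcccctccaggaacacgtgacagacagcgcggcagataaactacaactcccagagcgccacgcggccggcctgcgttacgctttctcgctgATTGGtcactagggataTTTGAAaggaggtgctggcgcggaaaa
Kif11, chr19:37376232-37376381, plus strand: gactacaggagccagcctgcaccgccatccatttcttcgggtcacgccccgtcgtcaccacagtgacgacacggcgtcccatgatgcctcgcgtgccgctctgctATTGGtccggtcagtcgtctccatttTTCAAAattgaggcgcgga
Mki67, chr7:135716380-135716529, minus strand: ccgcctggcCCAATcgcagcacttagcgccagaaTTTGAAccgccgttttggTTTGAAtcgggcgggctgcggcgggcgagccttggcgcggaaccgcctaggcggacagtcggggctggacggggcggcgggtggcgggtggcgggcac
Cdca4, chr12:112829390-112829539, minus strand: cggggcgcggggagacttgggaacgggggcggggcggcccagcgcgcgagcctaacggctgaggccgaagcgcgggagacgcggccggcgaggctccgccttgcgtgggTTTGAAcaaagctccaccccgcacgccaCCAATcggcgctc
In these stretches Top2a holds 4 CCAAT matches, at -149, -98, -78 and -58, before its hexamer at -23. Ube2c holds 2, at -88 and -57, before a hexamer at -29. Espl1 and Kif11 hold 1 each, at -44 and -45, before hexamers at -27 and -19. The layout is not shared by all. In Cdca4 the CCAAT match at -13 comes after the hexamer at -41, and in Mki67 the hexamers lie further from the start, at -116 and -98.

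The hexamer lay close to the start in many members. Within 50 bases on either side, a window chosen after the positions were seen, it was in 27 of 56 member promoters (48.2%) and in 4.94% of all promoters. Among promoters of protein-coding genes alone it was in 3.90%. The following sites give 10 bases on each side of the hexamer (capitals) in the direction of transcription, for 5 members listed in MEF and for 7 others described by role below.
Top2a: tagataaaggTTCAAAtgaaactagg
Ube2c: agggttgcaaTTCAAAcgcgggcggc
Cdca3: tggagggaagTTTGAAactccgggct
Cdca5: aggcgggcaaTTTGAAcgtttgaagc
Cdca5: aatttgaacgTTTGAAgcagcaaagt
Cenpa: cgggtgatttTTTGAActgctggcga
Espl1: actagggataTTTGAAaggaggtgct
Ttk: gcggggaaatTTCAAAcgtgtttccg
Ncapg: gcgatagttgTTTGAAaactctggcg
Plk1: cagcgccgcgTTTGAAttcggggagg
Kif11: gtctccatttTTCAAAattgaggcgc
Kif15: gggcgccaaaTTCAAAtctgcggcca
Spc25: cggtggagagTTTGAAattgaaagac
Cdca5 has 2 copies 8 bases apart, at -17 and -9. The first base is at 17 after the start in Cenpa and at 31 in both Cdca3 and Plk1. No TTTGAA is in the 300 bases read for Birc5, Mybl2 or Cenpm.

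**Figure D2:**
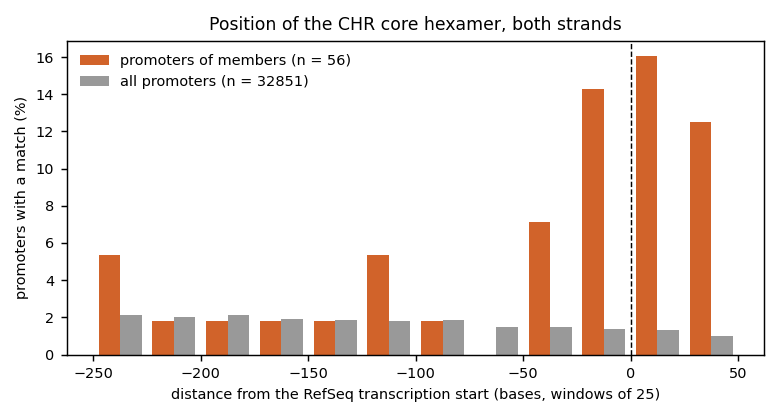
Share of promoters (percent) with a CHR core hexamer starting in each window of 25 bases, by distance from the RefSeq transcription start, for the 56 promoters of members and all 32851 promoters. Between 50 bases before and 50 after the start the member bars stand at 7.14% to 16.1%, and those of all promoters at 0.971% to 1.48%.

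At the centromere, 12 of the 18 genes under the rule were members listed in NPC, and 3 more (Cenps, Cenpu and Cenpx) were there under older names. They encode CENP-A and the constitutive centromere-associated network that reads it, with Cenpv beside them. Cenpm of that network had the most negative change of all members, going from 20.0 to 9.22 RPKM per the authors' deposited table (log2 fold change -1.11, SE 0.19). Cenpp followed at -0.92, from 11.1 to 5.88 RPKM per the authors' deposited table. Cenpa, the histone variant itself, had the highest level of the group and went from 60.3 to 33.0 RPKM per the authors' deposited table (log2 fold change -0.87, SE 0.14). Cenpk, which sits in the same subcomplex as the unlisted Cenph, changed least, from 13.4 to 8.47 RPKM per the authors' deposited table. The summed RPKM of the 12 genes went from 244 to 139, or 56.7% of the ethanol sum.

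Of the 9 outer kinetochore genes 6 were members listed in NPC, and Ska2 was there under its older name. Ska1, of the complex that tracks microtubule ends, went from 6.09 to 3.08 RPKM per the authors' deposited table. Spc24 and Spc25 form a dimer within the NDC80 complex. Spc24 went from 21.1 to 10.7 RPKM and Spc25 from 40.5 to 26.9 RPKM per the authors' deposited table. Their log2 fold changes were -0.98 (95% interval -1.30 to -0.66) and -0.59 (95% interval -0.88 to -0.31), and these intervals overlap. Cenpe, the kinetochore kinesin that brings chromosomes to the spindle equator, had a log2 fold change of -0.91 per the authors' deposited table. Ndc80, the microtubule-binding subunit, and the corona protein gene Cenpf lay between, at -0.78 and -0.76 per the authors' deposited table.

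Checkpoint and anaphase genes were listed for 5 of 7. Espl1 encodes separase, the protease that cleaves cohesin at anaphase, and went from 13.9 to 7.17 RPKM per the authors' deposited table. Ttk (the checkpoint kinase Mps1) went from 21.8 to 11.4 RPKM per the authors' deposited table. Both kept about the same share, 51.7% and 52.4% of the ethanol level. Bub1, a kinase that recruits checkpoint proteins, had a log2 fold change of -0.77 per the authors' deposited table. Ube2c, the ubiquitin-conjugating enzyme of the anaphase-promoting complex, was the most abundant of the group and changed least in NPC, from 107 to 65.4 RPKM per the authors' deposited table (log2 fold change -0.70, SE 0.14).

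The chromosomal passenger complex corrects faulty attachments and acts in cytokinesis, and its subunits moved within a narrower range than any other group of more than 1 gene. Birc5 (survivin) went from 87.5 to 50.9 RPKM, Cdca8 (borealin) from 75.6 to 46.3 RPKM and Incenp, the scaffold, from 50.4 to 29.7 RPKM per the authors' deposited table. The kinase Aurkb went from 39.3 to 23.2 RPKM per the authors' deposited table. Their log2 fold changes spanned -0.78 to -0.71, with an SD of 0.03 over the 4 genes, against 0.12 over all 61 members. The SE of the single values ran from 0.13 to 0.16, above this SD. The narrow range is therefore not shown to be a trait of the complex. The germ cell paralog Aurkc was not listed.

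Condensin, the ring complex that compacts mitotic chromosomes, had 7 of 8 subunits listed. Smc2 and Smc4 form the core of both condensins, and Smc4 went from 64.7 to 33.9 RPKM per the authors' deposited table (log2 fold change -0.93, SE 0.14). Ncapg of condensin I went from 27.4 to 13.9 RPKM per the authors' deposited table, the largest change of the group (log2 fold change -0.98). Its condensin II counterpart Ncapg2 went from 16.9 to 9.41 RPKM per the authors' deposited table. Ncaph2, the kleisin of condensin II, changed least, from 36.2 to 23.1 RPKM per the authors' deposited table, while the condensin I kleisin Ncaph was not listed.

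Of the 4 other genes of mitotic chromosomes 3 were listed in NPC, all but Cdca5, and they had the most negative median of the role groups. Top2a, the topoisomerase that untangles sister chromatids, went from 159 to 75.3 RPKM per the authors' deposited table (log2 fold change -1.08, SE 0.17). Mki67, the coat protein gene used as a marker of dividing cells, went from 106 to 50.5 RPKM per the authors' deposited table (log2 fold change -1.07, SE 0.18). Cdca2 (repo-man), which brings a phosphatase to chromatin at anaphase, had a log2 fold change of -0.94 per the authors' deposited table. The 3 genes kept 47.7% of their summed ethanol level, and each other group kept between 56.0% and 61.3%. With Cenpm and Mybl2, Top2a and Mki67 were the 4 members lower by at least 1 on the log2 scale, a limit that 861 rows of the NPC table passed, 181 (21%) on the lower side.

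**Figure D3:**
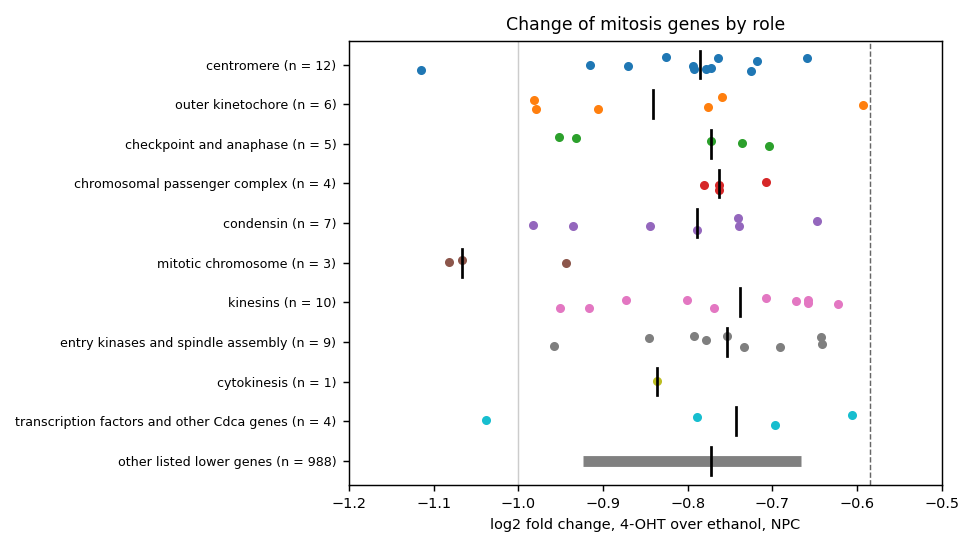
Log2 fold change of each member in NPC (points) by role, with the median as a black bar and, in the last row, the quartile range (grey) and median of the other 988 lower genes. The dashed line is the 1.5-fold listing limit, and the median of the mitotic chromosome genes, -1.07, lies furthest left, while the leftmost single point is Cenpm of the centromere.

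Kinesins move along or take apart spindle microtubules, and 10 of the 12 under the rule were listed. Kif11 (Eg5), which pushes spindle poles apart, went from 52.3 to 27.7 RPKM per the authors' deposited table (log2 fold change -0.92, SE 0.14). Kif15, which can share that task, went from 21.5 to 11.7 RPKM per the authors' deposited table. Kif14, a kinesin of the midbody, went from 4.85 to 2.51 RPKM per the authors' deposited table and was the least abundant. The smallest change was in Kif20b, from 13.2 to 8.57 RPKM per the authors' deposited table. For Kif20a, a central spindle motor, the change from 42.9 to 27.2 RPKM per the authors' deposited table had an SE of 0.24, the largest of any member in NPC.

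All 9 genes of mitotic entry and spindle assembly under the rule were listed, in a set chosen with earlier results of these data known. Cdca3, which targets the Cdk1 inhibitor Wee1 for destruction, went from 90.9 to 46.8 RPKM per the authors' deposited table and had the smallest Cuffdiff p of any member (1.41e-12). The centriole duplication gene Cenpj (CPAP), a Cenp gene that is no centromere protein, went from 6.95 to 3.87 RPKM per the authors' deposited table. Plk1, the kinase that drives mitotic entry and spindle formation, went from 46.9 to 27.1 RPKM per the authors' deposited table (log2 fold change -0.79, SE 0.14). Aurka, the spindle pole kinase, and its activator Tpx2 had the smallest changes of the group, each with a log2 fold change of -0.64 per the authors' deposited table. Of the cytokinesis genes, Anln (anillin) of the contractile ring went from 20.2 to 11.3 RPKM per the authors' deposited table, and Prc1 was not listed.

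The transcription factors were lower as well. Mybl2 (B-Myb), which joins MuvB to activate late cell cycle genes, went from 9.69 to 4.72 RPKM per the authors' deposited table (log2 fold change -1.04, SE 0.15). Foxm1, which acts with it, went from 36.5 to 24.0 RPKM per the authors' deposited table, on a row that names a second gene, 4933413G19Rik. The Myc-interacting factor Cdca7l and Cdca4 had log2 fold changes of -0.79 and -0.70 per the authors' deposited table. By GENCODE 12 members share exon bases with another coding gene: Cdc25b, Cdca7l, Cenpo, Cenpp, Cenpq, Foxm1, Kif20a, Kif4, Ncapg, Ncaph2, Nusap1 and Ube2c. The other gene is on the same strand for Foxm1 and on the opposite strand for the rest, and the library kit named in the labels does not mark strand. Reads of these and of their neighbors cannot be fully told apart, so their values, and their ranks within the groups above, are less certain.

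In MEF 8 members were listed and all 8 were lower, where 49.5% of all 111 rows were lower. They were Top2a, Cdca3, Birc5, Ube2c, Mybl2, Cenpa, Cdca5 and Aurkb. The centromere, the passenger complex, mitotic chromosomes, mitotic entry and the factor B-Myb thus each had at least 1 gene. The outer kinetochore, condensin, the kinesins and cytokinesis had 0, which does not show them unchanged, given the larger SE in MEF. Of the checkpoint and anaphase group only Ube2c was listed, and the checkpoint kinases Bub1 and Ttk were not. With 4-OHT the 8 members kept between 50.8% and 59.7% of the ethanol level, and the listing limits leave smaller changes out. Cdca5 (sororin), which protects sister chromatid cohesion, was the single member listed in MEF and not in NPC, at 5.53 and 2.92 RPKM per the authors' deposited table. The p-values were far larger than in NPC, from 0.0171 for Top2a to 0.0475 for Aurkb by the Cuffdiff test, and no member could be called at 0.05 once the Cuffdiff p was adjusted by the bound. The share of lower rows was 40% with a Cuffdiff p under 0.01 (0 members) and 100% by the bound, which 1 gene passed (0 members). It was 55.2% and 67.1% of rows that reached 1 or 5 RPKM (8 and 7 members), 60.2% with the pseudocount (8 members) and 35.6% at a log2 change of at least 1 (0 members). The median SE was 0.39, against 0.14 for the members in NPC. These 8 genes stood among 55 lower genes in MEF, and the 61 among 1049 in NPC.

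The 7 members in both tables allow their changes to be set against each other. Top2a went from 34.2 to 20.4 RPKM in MEF per the authors' deposited table, a log2 fold change of -0.74, beside -1.08 in NPC. The difference, MEF minus NPC, was 0.34 (95% interval -0.36 to 1.03), the widest gap of the 7. Birc5 went from 39.5 to 21.4 RPKM in MEF per the authors' deposited table, and Ube2c from 32.2 to 18.2 RPKM. Both had somewhat more negative values in MEF, with differences of -0.10 (95% interval -0.92 to 0.71) and -0.12 (95% interval -0.91 to 0.67). Cdca3 and Cenpa had MEF log2 fold changes of -0.87 and -0.81 per the authors' deposited table, with differences of 0.09 and 0.06. Mybl2, at 2.68 and 1.36 RPKM in MEF per the authors' deposited table, and Aurkb, at 10.8 and 6.31 RPKM, differed by 0.06 and -0.02. All 7 intervals included 0, and 0 of the 7 differences passed after Benjamini-Hochberg adjustment over the 49 genes in both tables, of which 9 passed. Their intervals are wide, the narrowest being that of Top2a, so similar changes are not shown. Each gene also had to pass the p and fold limits in both cell types to be compared. A gene with a small change in either is absent, so the test cannot decide whether the changes differ. With ethanol all 7 had higher RPKM in NPC than in MEF, by 2.21-fold for Birc5 to 4.66-fold for Top2a, in tables that were normalized separately and without a test.

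**Figure D4:**
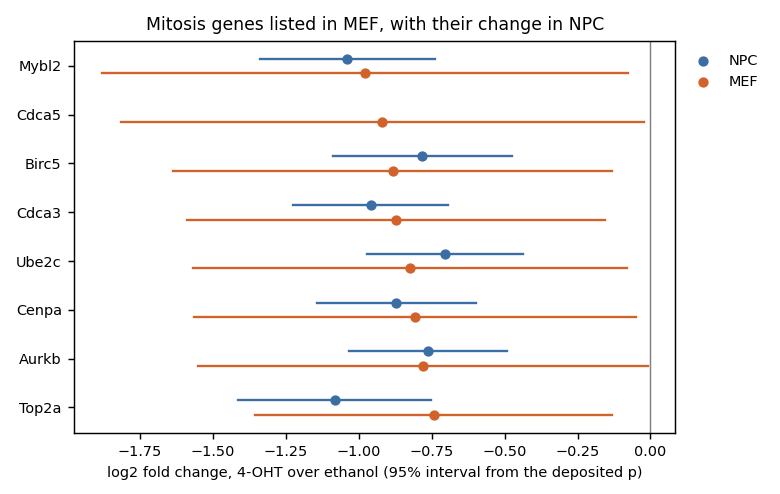
Log2 fold change (4-OHT over ethanol) of the 8 members listed in MEF, with 95% intervals derived from the deposited p-values, for NPC and MEF. All points lie below 0, the MEF intervals are wider than those of NPC, and Cdca5 has a point in MEF only.

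Splicing was deposited as events with an inclusion level per library, and 1 of the 255 NPC events and 0 of the 71 MEF events lay in a member. It was a skipped exon of Cenpi, a centromere gene whose RPKM went from 14.3 to 8.40 per the authors' deposited table. The exon spans chrX:130843105-130843172 on the plus strand of mm9 and has 68 bases. By its length and those of both neighboring introns it matches exon 2 of 23 in a GENCODE transcript, in the 5 prime UTR, ahead of the start codon in exon 4. In the pair coded 24 the inclusion level was 0.914 with ethanol and 0.5 with 4-OHT. For the pair coded 28 it was 0.848 and 0.526. Both ethanol libraries were above both 4-OHT libraries, with means of 0.881 ± 0.047 (SD, n = 2) and 0.513 ± 0.018 (SD, n = 2). The reads were few: inclusion reads were 53 of 55 and 70 of 75 with ethanol, and 25 of 35 and 25 of 34 with 4-OHT. As shares of reads these are 96.4% (95% Wilson interval 87.7% to 99.0%), 93.3% (85.3% to 97.1%), 71.4% (54.9% to 83.7%) and 73.5% (56.9% to 85.4%), where the intervals cover counting error only. The deposited p-values of the pairs, 0.00373 and 0.0247, compare 2 libraries each and are not adjusted. The remaining pair is not listed for this exon, and only changed events are listed, so the 2 pairs are given as a description. An exact sign-flip test over 2 pairs cannot go below p = 0.5, the value it gave.

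**Figure D5:**
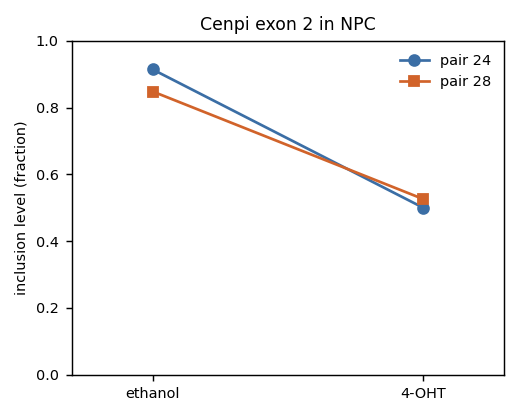
Inclusion level (fraction, axis from 0 to 1) of the 68-base Cenpi exon in the ethanol and 4-OHT library of each listed NPC pair, joined by a line. Both lines go down, from 0.914 to 0.5 and from 0.848 to 0.526.

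Mitosis genes outside the rule went the same way in NPC. Of 128 names in 8 lists 53 were listed, 52 lower and 1 higher, beside 43.4% lower in the whole table. That share bears on direction only. For the count of names listed, the scale is 2416 rows in NPC and 55450 genes in the annotation. The lists were drawn up with earlier results of these data known. Some genes are in them under both an older and a newer name, so the totals count names and exceed the number of genes. Kinetochore partners were 3 of 12 names, led by D2Ertd750e (kinastrin), from 42.3 to 14.6 RPKM, and the scaffold Casc5 (Knl1), from 9.87 to 4.93 RPKM, per the authors' deposited table. Checkpoint and cohesion-protection genes were 9 of 16 names, with Trip13 and Fbxo5 (Emi1) at log2 fold changes of -1.01 and -0.98 per the authors' deposited table. Cyclin B, Cdk1 and their controls were 8 of 11, with the inhibitory kinase Pkmyt1 at -1.03 (SE 0.41) and Ccnb2 at -0.88 per the authors' deposited table. Spindle and centrosome genes were 19 of 36 names, with the augmin subunit Haus5 at -1.09 and Fam64a at -1.05 per the authors' deposited table. For the cleavage furrow 6 of 8 were listed, with Depdc1b and Shcbp1 at -0.93 and -0.88 per the authors' deposited table. For the anaphase-promoting complex and its enzymes 2 of 15 were listed, Ube2s and Anapc5 at -0.69 and -0.65, and 1 of 13 names for cohesin, Smc1a at -0.70, per the authors' deposited table. Whether the shares of the lists differ was not tested. Of 17 DREAM, MuvB and E2F genes 5 were listed: E2f7 and E2f8, repressors of the family, at -1.11 and -0.92, E2f1 and Rbl1 lower too, and Mybl1 (A-Myb) higher, from 6.84 to 11.2 RPKM, per the authors' deposited table. In MEF 8 of the 128 names were listed, all 8 lower, beside 49.5% lower in the whole table of 111 rows. D2Ertd750e had 7.66 and 3.88 RPKM there per the authors' deposited table.

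Markers of other cell types were also listed in NPC, where 56.6% of all 2416 rows were higher. Of 10 astrocyte and oligodendrocyte markers 6 were listed, all higher, and their summed RPKM went from 74.3 to 140, most of it from Aldh1l1. Of 9 neuron markers 4 were listed, 3 higher and 1 lower, with a sum of 6.25 and 11.0 RPKM. Of 8 blood, immune and vessel markers 0 were listed, of 12 fibroblast markers 2, and of 12 neural progenitor markers 1, Hes5, which was lower. No listed marker stood at 0, and their part in the lower mitosis genes was not tested. In MEF 0 markers of these lists were listed. As the tables hold changed genes only, the labelled cell types could not be checked further against their markers.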

How the data were processed

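RNA was sequenced from 12 libraries. Tools named are CASAVA 1.8, TopHat2 2.03, Bowtie2 2.0.0.6 and Cuffdiff 2.02, with the build mm9, per the submitters' processing notes. RPKM, the log2 fold change and an unadjusted p-value were deposited by the authors, with 1 value per arm, per the file headers. Splicing tables give the count of reads of each form and the inclusion level as a fraction, with its difference and p-value, per the file headers; the tool's version is not given in the sources used here. Their coordinates start at 0 and were moved to 1-based.

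Tables of both cell types were read through the labels' groups. The log2 values were taken as deposited, infinite ones left out of medians. The Benjamini-Hochberg bound takes all 55450 annotated genes as tested, so the true adjusted p cannot exceed it. SE values came from the deposited p under a normal distribution, and NPC and MEF changes were compared by their difference over its SE, over 49 shared genes. Deposited p of 0 (102 NPC rows) were set to the smallest p above 0, which makes those SE upper limits. The bound, the SE and the difference were checked on data simulated under the normal distribution assumed for the SE. That checks the arithmetic only, and not whether this distribution holds for Cuffdiff p-values. The simulated differences were not filtered by the listing limits. Motifs were sought in RefSeq promoters. Python 3.11.15, scipy 1.17.1 and pandas 2.3.3 were used.

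Members and lists were chosen with earlier results of these data known. Named genes are those in both tables, those higher with 4-OHT, those with an event, the 3 largest and the smallest changes in NPC per role, and in other lists the 2 largest and any against the majority; Ndc80, Cenpf, Tpx2, Cenpo, Cdca5, Kif20a and E2f1 and Rbl1 were added after their values were seen. Alternatives covered the p limit, level and fold limits, a pseudocount of 1, role groups, shared rows, a t distribution, left-out pairs and a minimum of 20 reads.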

Additional observations from a re-analysis of the deposited data

How the results depend on the processing

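The alternatives for expression filter or rescale the same deposited values and cannot turn a member's direction, so they bear on counts only. In NPC the 61 lower members became 59 where either arm had to reach 5 RPKM, 58 with a pseudocount of 1, 57 without transcription factors and other Cdca genes, 60 by the bound of the adjusted p, and 4 at an absolute log2 change of 1 or more, where 21% of 861 rows were lower. In MEF the 8 lower members, all with a Cuffdiff p under 0.05, became 0 with a Cuffdiff p under 0.01, 0 by the bound of its adjusted p and 0 at an absolute log2 change of 1 or more, and 7 or 8 otherwise. For NPC against MEF, 0 of 7 members passed in each setting, with adjusted p-values from 0.339 to 0.983 (z test replaced by a t distribution with 4 degrees of freedom per table). The Cenpi difference of 0.368 was 0.322 to 0.414 with either pair left out, and the replicate block, an exact sign-flip test over 2 pairs, left it at 0.368 with p = 0.5, the smallest possible. For expression, no paired analysis was possible because the tables hold 1 value per arm. Without library totals, depth limits cannot be given.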

Other observations

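Genes of microtubules and their motors outside the mitotic set were split in NPC; these were chosen after their values were seen. The abundant tubulin genes Tuba1b and Tuba1c went from 850 to 488 RPKM and from 199 to 127 RPKM per the authors' deposited table, and Stmn1, which encodes the microtubule-destabilizing protein stathmin, from 241 to 147 RPKM. Stmn1 was also lower in MEF, from 50.6 to 30.3 RPKM per the authors' deposited table, where the bound of its adjusted p was 1. The neuronal tubulin gene Tubb3 went the other way, from 4.81 to 9.59 RPKM per the authors' deposited table, with an adjusted Cuffdiff p certain to be under 0.05. For 3 others with a higher value the bound of the adjusted p was not under 0.05. These were the stathmin paralogs Stmn4, from 4.13 to 6.40 RPKM (bound 0.0796), and Stmn2, from 0.0320 to 0.108 RPKM (bound 0.679), and Tuba8, from 0.125 to 0.323 RPKM (bound 0.215), per the authors' deposited table. Among kinesins that are no members, Kif24, which acts at centrioles, had a log2 fold change of -1.34 and Kif26a of -0.70, while Kif21a, a motor of neurons, had 0.62 per the authors' deposited table.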
